A study of Mus musculus with 6 samples.

Results

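Sham-operated hearts from Trpm4 knockout and wild-type mice were compared 24 h after the operation, cell type by cell type, in non-cardiomyocytes profiled by droplet single-cell RNA sequencing. The members were the cells of the 2 sham libraries with at least 200 detected genes and at most 20% of their molecules from mitochondrially encoded genes. This left 11507 cells of 33738 in the series, 5532 from wild type (WT) and 5975 from knockout (KO). Trpm4 encodes a cation channel opened by intracellular calcium that passes sodium and potassium and so depolarises the cell.

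The WT library came from strain C57BL/6JRj and the KO library from strain B6.Cg-Trpm4tm1.2-PG. All mice were males of 8 to 12 weeks and all had surgery, so the sham mice carried an operation but no coronary ligation. Ventricles were digested with warm enzymes, fibrous pieces and cardiomyocytes were removed on meshes, and live cells were sorted by dye. Each library pooled the cells of 4 mice and each condition had 1 library, so nothing below has a replicate. Every interval covers counting error only, and no difference was tested against variation between mice. The other 4 libraries, WT and KO at 24 h and 72 h after ligating the left anterior descending (LAD) coronary artery, were used only where a sham result is set beside them.

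The 2 sham libraries were equal in depth, with 34691228 unique molecular identifiers (UMIs, counts of captured transcripts) deposited for WT and 34691519 for KO. Median UMIs per kept cell were 3729 in WT and 3816.5 in KO, and median genes per cell were 1616 and 1611.5. Predicted doublets, 264 in WT and 301 in KO, were removed, and 12 cell barcodes occurred in both libraries. Clusters built over all 6 libraries were named from marker genes, and 4 of 36 stayed unnamed. The naming used these markers, so their presence is no separate support: 13 of 13 endothelial, 12 of 12 fibroblast, 19 of 19 monocyte/macrophage, 11 of 12 neutrophil and 9 of 9 smooth muscle markers had at least 200 UMIs in their own class. Despite the meshes, 31 WT and 52 KO cells formed a cluster named cardiomyocyte from its markers. The 12 cardiomyocyte transcripts listed had a summed level in endothelial cells of 260 CPM (UMI counts scaled to a fixed class total) for WT and 319 CPM for KO.

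Endothelial cells, which line the blood vessels, made up more of the KO than of the WT library, and leukocytes made up less. Endothelial cells were 42.1% of WT and 52.9% of KO cells, a difference of 10.8 percentage points (95% interval 8.94 to 12.7). Monocytes and macrophages were 16.4% of WT and 11.7% of KO cells, a difference of -4.66 points (-5.97 to -3.36). Neutrophils were 16.7% and 11.8%, a difference of -4.86 points (-6.18 to -3.55). Dendritic cells, which present antigen, were 2.90% and 1.39%. Fibroblasts, the matrix-producing cells, were 6.93% and 7.93%, and smooth muscle cells 2.96% and 3.88%. Pericytes were too few to describe by gene, with 88 WT and 89 KO cells. Shares of one library sum to a fixed total, so a class can be larger in share without more cells in the heart. The monocyte/macrophage difference ranged from -2.28 to -6.99 points with other clustering, doublet or depth settings.

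**Figure D1:**
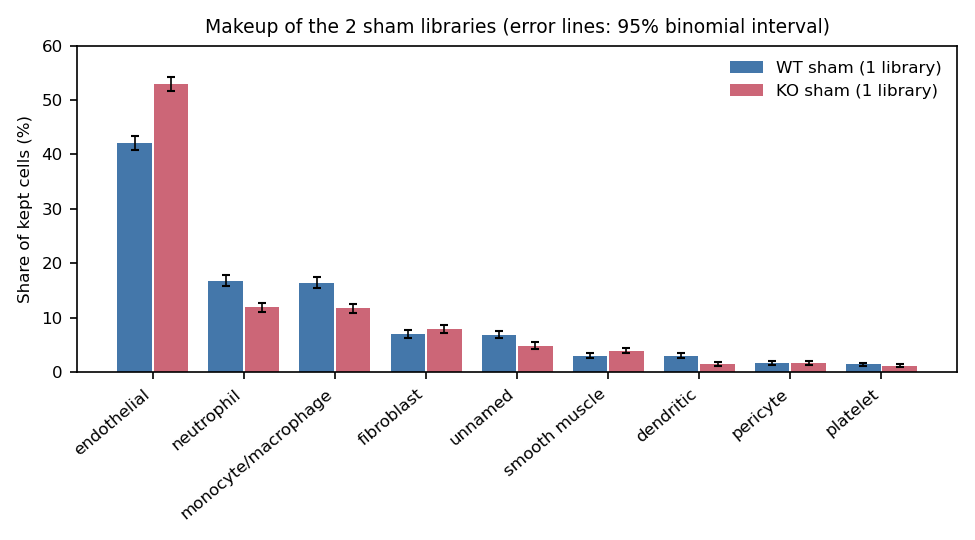
Share of kept cells (y axis, percent) of each cell class with at least 100 cells over the 2 sham libraries, WT in blue and KO in red, with 95% exact binomial intervals as error lines. Endothelial cells stand higher in KO (52.9% against 42.1%), and monocytes and macrophages, neutrophils and dendritic cells stand lower.

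Within the named classes the makeup also differed. Fibroblast cluster 9 held 81.9% of WT and 68.2% of KO fibroblasts, and cluster 15, led by Dkk3, Wif1, Ccl19, Tbx20 and Comp, held 13.2% and 25.1%. Resident macrophage-like cluster 4 held 26.3% of WT and 33.6% of KO monocytes and macrophages. Cluster 20, led by Ear2 and Adgre4, held 5.22% and 3.31%. Neutrophil cluster 5, led by Ccrl2 and Tnf and with Siglecf among its leading genes, held 73.3% of WT and 64.7% of KO neutrophils. Cluster 16, led by Retnlg, held 20.3% and 25.6%. Cluster 33, with Cd177 and Retnlg among its leading genes, held 2.05% and 5.80% (18 and 39 cells). Endothelial makeup was closer: the capillary cluster held 49.8% and 53.1%, and the arterial cluster 33.0% and 31.9%.

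Gene levels were compared as UMIs summed over a class and scaled to the class total, as CPM. A gene was compared where it had at least 200 UMIs over both libraries, and was counted when KO and WT differed by more than 1.5-fold. In endothelial cells 223 of 8135 genes, or 2.74%, were past 1.5-fold, 85 higher and 138 lower in KO (1.04% and 1.7%). In fibroblasts 204 of 5728 were past it, or 3.56% (2.08% higher, 1.48% lower). In monocytes and macrophages the count was 186 of 6655, or 2.79% (2.22% higher, 0.571% lower). In neutrophils it was 83 of 2262, or 3.67% (2.17% higher, 1.5% lower), and in smooth muscle cells 67 of 1873, or 3.58% (1.82% higher, 1.76% lower). Unnamed cluster 6, led by Ccl2, Ccl7, Spp1, F10 and Arg1 with 206 WT and 161 KO cells, had 106 of 3049, or 3.48% (2.69% higher, 0.787% lower). It stayed unnamed because the platelet gene Ppbp was among its leading genes. The median log2 ratio of KO to WT over all compared genes lay between -0.05 and 0.02 in these classes.

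Trpm4 itself was low in every class. Endothelial cells had 92 UMIs in WT (10.7 CPM) and 82 in KO (6.64 CPM), a log2 ratio of KO to WT of -0.69 (-1.14 to -0.24). Smooth muscle cells had 36 UMIs (32.6 CPM) and 19 (13.9 CPM), a log2 ratio of -1.23 (-2.11 to -0.39). Fibroblasts had 31 and 20 UMIs, with an interval that included 0 (-1.68 to 0.06), and monocytes and macrophages had 66 and 33. Neutrophils had none in either library. Over all kept cells the counts were 260 and 180, a log2 ratio of -0.54. Transcripts tagged at the 3′ end were thus still counted in KO cells. The deleted stretch of Trpm4 is not named in the labels, so tags outside it check nothing.

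The circadian clock is a feedback loop in which the activators Clock and Arntl (also called Bmal1) drive E-box genes, among them the repressors Per and Cry. A second loop runs through Nr1d1 and Nr1d2, nuclear receptors that repress Arntl, and output factors such as Dbp, Tef and Hlf act through D-box elements. In heart and vessel cells Dbp and Arntl peak at opposite times of day, so their levels in a single sample depend on the hour of collection. The hour was not among the labels, and the genotypes were different libraries. A genotype difference in clock genes and a difference in sampling time therefore cannot be told apart here.

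The 250 bases before an annotated start of 6 clock genes that differed between the sham libraries show the elements this loop reads. They are RefSeq sequence of GRCm38.p6, given 5′ to 3′ on the gene's strand, and capitals mark an E-box (CACGTG) or a D-box (TTANGTAA). Dbp is shown because it carried the largest endothelial UMI difference among clock genes. Its window, chr7:45704997-45705246 on the plus strand, held neither element. Tef (chr15:81802423-81802672, plus), Per1 (chr11:69098699-69098948, plus), Ciart (chr3:95882229-95882478, minus) and Bhlhe41 (chr6:145865421-145865670, minus) are shown for their E-boxes, and Per3 (chr4:151044666-151044915, minus) for its pair of D-boxes. Windows not shown are another of Tef, with an E-box, and another of Per1 (chr11:69099902-69100151, plus), with neither element.
Dbp: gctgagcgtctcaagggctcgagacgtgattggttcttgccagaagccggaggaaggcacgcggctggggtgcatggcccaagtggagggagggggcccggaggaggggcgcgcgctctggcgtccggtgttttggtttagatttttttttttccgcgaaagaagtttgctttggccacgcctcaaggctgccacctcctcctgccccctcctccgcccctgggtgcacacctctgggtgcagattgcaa
Tef: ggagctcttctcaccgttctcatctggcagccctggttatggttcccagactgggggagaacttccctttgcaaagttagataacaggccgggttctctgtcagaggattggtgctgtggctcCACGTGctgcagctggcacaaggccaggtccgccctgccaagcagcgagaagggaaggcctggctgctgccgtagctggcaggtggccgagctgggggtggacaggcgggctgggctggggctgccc
Per1: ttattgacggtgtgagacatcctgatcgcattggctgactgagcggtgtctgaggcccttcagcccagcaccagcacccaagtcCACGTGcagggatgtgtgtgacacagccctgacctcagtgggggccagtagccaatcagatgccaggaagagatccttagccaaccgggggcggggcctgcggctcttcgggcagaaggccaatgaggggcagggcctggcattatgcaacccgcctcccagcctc
Ciart: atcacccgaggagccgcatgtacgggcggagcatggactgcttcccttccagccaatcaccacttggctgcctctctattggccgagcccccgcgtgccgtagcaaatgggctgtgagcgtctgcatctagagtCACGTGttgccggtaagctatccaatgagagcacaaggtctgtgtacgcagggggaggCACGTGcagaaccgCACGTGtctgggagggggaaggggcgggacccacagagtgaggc
Bhlhe41: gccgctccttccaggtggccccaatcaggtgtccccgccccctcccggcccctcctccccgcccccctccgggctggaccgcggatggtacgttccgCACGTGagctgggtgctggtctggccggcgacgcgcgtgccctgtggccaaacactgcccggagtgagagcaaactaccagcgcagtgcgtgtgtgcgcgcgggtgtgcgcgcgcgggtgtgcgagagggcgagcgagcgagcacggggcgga
Per3: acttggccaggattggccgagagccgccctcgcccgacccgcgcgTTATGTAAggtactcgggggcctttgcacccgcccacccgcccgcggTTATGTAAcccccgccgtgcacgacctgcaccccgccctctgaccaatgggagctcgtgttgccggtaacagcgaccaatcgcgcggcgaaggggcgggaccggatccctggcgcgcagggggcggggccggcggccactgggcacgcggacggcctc
Both strands were searched. An E-box occurred in 6.02% of all 32851 promoter windows of this length and a D-box in 2.06%. By gene, 6.86% of 27025 genes had an E-box in a window and 2.44% a D-box. Of 19 clock genes listed, 17 had a window in the table. Per2 and Bhlhe40 had none. An E-box was present for Tef, Per1, Ciart, Bhlhe41 and Cry1, and a D-box for Per3. A match describes letters in the window and is not evidence of binding.

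In endothelial cells, clock output genes were lower in KO. All 7 of the 7 compared genes of the list that peaks with Dbp were past 1.5-fold lower, with a median log2 ratio of -1.49, where 1.7% of all compared genes were past 1.5-fold lower. Dbp, a D-box activator, had 3176 UMIs in WT (369 CPM) and 751 in KO (60.8 CPM), a log2 ratio of -2.60 (-2.72 to -2.49). Hlf, from the same family, had 425 UMIs (49.4 CPM) and 55 (4.45 CPM), a log2 ratio of -3.47 (-3.90 to -3.06). Tef, the third member, had 856 (99.5 CPM) and 437 (35.4 CPM), a ratio of -1.49. All 3 D-box activators were thus lower in the KO library, Hlf by the largest fold.

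The repressor genes of the loop were lower as well. Per3 had 702 UMIs in WT (81.6 CPM) and 294 in KO (23.8 CPM), a log2 ratio of -1.78 in endothelial cells. Per1 had 253 and 207 UMIs, a log2 ratio of -0.81. Nr1d1 had 199 and 108 CPM in WT and KO, a log2 ratio of -0.88, and Nr1d2 101 and 47.8 CPM, a ratio of -1.07. These nuclear receptors thus differed by less than Dbp and its relatives. Cry2 had a log2 ratio of -1.37, and Bhlhe40, an E-box repressor, one of -0.89. Genes under 200 UMIs pointed the same way: Per2 (100 and 40 UMIs), Ciart (76 and 13) and Bhlhe41 (165 and 30), the last 2 being repressors of Clock and Arntl. Usp2 had 9 and 13 UMIs, too few to place.

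The activator side stood on the other side of 0. Arntl had 39 UMIs in WT endothelial cells (4.53 CPM) and 284 in KO (22.99 CPM), a log2 ratio of 2.34 (1.86 to 2.86). Nfil3, which represses D-box genes, had 22 and 79 UMIs, a log2 ratio of 1.32. Clock, the partner of Arntl, had 532 and 958, a ratio of 0.33, short of 1.5-fold. Cry1, placed in the list that peaks opposite to Dbp, had 154 and 132 UMIs and a log2 ratio of -0.74, so this list did not have a single direction.

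The difference in Dbp was present in every endothelial cluster large enough to compare. Its log2 ratio was -2.84 in capillary cluster 0, -2.63 in arterial cluster 13, -2.93 in cluster 12 (led by interferon-induced genes) and -3.12 in cluster 23 (marked by Apln). Arntl differed the other way in the same clusters, with 32 UMIs in WT and 178 in KO in cluster 0 and 5 and 70 in cluster 13. Both genes thus kept their direction within clusters.

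Fibroblasts showed the same arrangement. All 7 compared genes of the list that peaks with Dbp were past 1.5-fold lower, with a median of -1.55, against 1.48% of all compared genes. Dbp had 697 UMIs (176 CPM) in WT and 132 (29.8 CPM) in KO, a log2 ratio of -2.56 (-2.84 to -2.29). Per3 had 86.3 and 21.5 CPM and Nr1d1 167 and 55.5 CPM, ratios of -2.01 and -1.59. Bhlhe41 had 215 and 84 UMIs, a ratio of -1.52. Hlf, with 91.4 and 43.1 CPM, had a ratio of -1.08, smaller than in endothelial cells. Arntl had 12.4 CPM in WT and 40.9 CPM in KO, a ratio of 1.72 (1.26 to 2.21). Cry1 had 19 and 56 UMIs, a ratio of 1.40, opposite to its direction in endothelial cells. Per1 (83 and 79 UMIs) and Per2 (33 and 43) had log2 ratios of -0.23 and 0.22, so the Per genes did not move as a group here. In cluster 9 alone, the main fibroblast cluster, Dbp had a ratio of -2.71.

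Smooth muscle cells repeated the pattern in fewer UMIs. All 3 compared genes of the list were past 1.5-fold lower (1.76% of all compared genes). Dbp had 212 CPM in WT and 44.6 CPM in KO, a log2 ratio of -2.25 (-2.68 to -1.84), and Nr1d1 133 and 53.4 CPM, a ratio of -1.32. Usp2, a clock-controlled deubiquitinase, had 121 and 84 UMIs, a ratio of -0.83. Arntl had 7 and 27 UMIs, a ratio of 1.64 (0.40 to 3.08).

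In leukocytes clock output genes were scarce. Monocytes and macrophages had 156 Dbp UMIs in WT (18.9 CPM) and 43 in KO (6.52 CPM), a log2 ratio of -1.53 (-2.05 to -1.04). Of these, 125 and 34 lay in resident macrophage-like cluster 4, where the ratio was -1.87. Arntl had 57 and 109 UMIs over the class, a ratio of 1.26 (0.79 to 1.75). The clock genes with at least 200 UMIs in this class were all short of 1.5-fold: Per1 -0.12, Clock 0.14, Nfil3 0.03 and Bhlhe40 -0.06. Neutrophils had 16 and 6 Dbp UMIs, too few to describe. Their Per1, at 131 and 129 CPM, and Nfil3, at 183 and 204 CPM, had log2 ratios of -0.02 and 0.15. Outside the vessel wall cells and fibroblasts, the difference in Dbp and Arntl thus rested on fewer than 200 UMIs per gene, or could not be read at all in neutrophils.

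**Figure D2:**
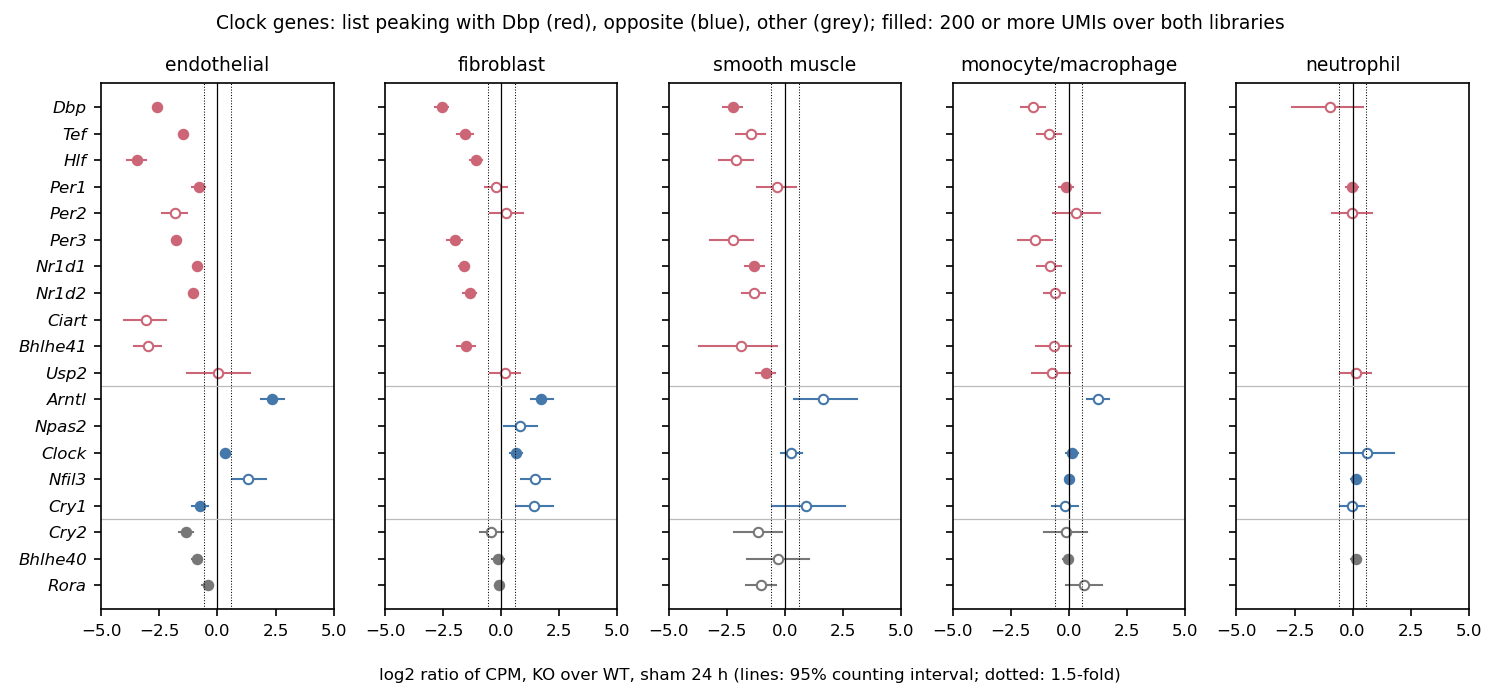
Log2 ratio of KO to WT (x axis) of each clock gene (rows) in 5 cell classes at sham, with 95% counting intervals as lines. Genes that peak with Dbp are red, the opposite group blue and the rest grey. Filled points have at least 200 UMIs over both libraries. In endothelial cells and fibroblasts the filled red points all lie left of the dotted 1.5-fold line, and Arntl lies to the right.

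After coronary ligation Dbp was below the WT sham level in both genotypes. At 24 h after ligation endothelial Dbp had 95 WT UMIs (30.4 CPM) and 30 KO UMIs (13.5 CPM), a log2 ratio of -1.17 (-1.82 to -0.57). Fibroblast Dbp was 32.0 and 7.77 CPM, a ratio of -2.04. At 72 h endothelial Dbp was 45.0 and 41.6 CPM, a ratio of -0.11 (-0.77 to 0.52), and fibroblast Dbp 24.4 and 24.3 CPM. Arntl at 24 h after ligation was 24.0 CPM in WT and 23.3 CPM in KO endothelial cells, and 25.8 and 27.8 CPM in fibroblasts. At 72 h it was 11.2 and 9.39 CPM in endothelial cells, from 17 and 7 UMIs. Of the 6 libraries, WT sham had the highest endothelial Dbp, while its low Arntl had an interval overlapping that of KO at 72 h. Whether the sham and ligation ratios differ was not tested, and each condition and genotype is a single pool.

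**Figure D3:**
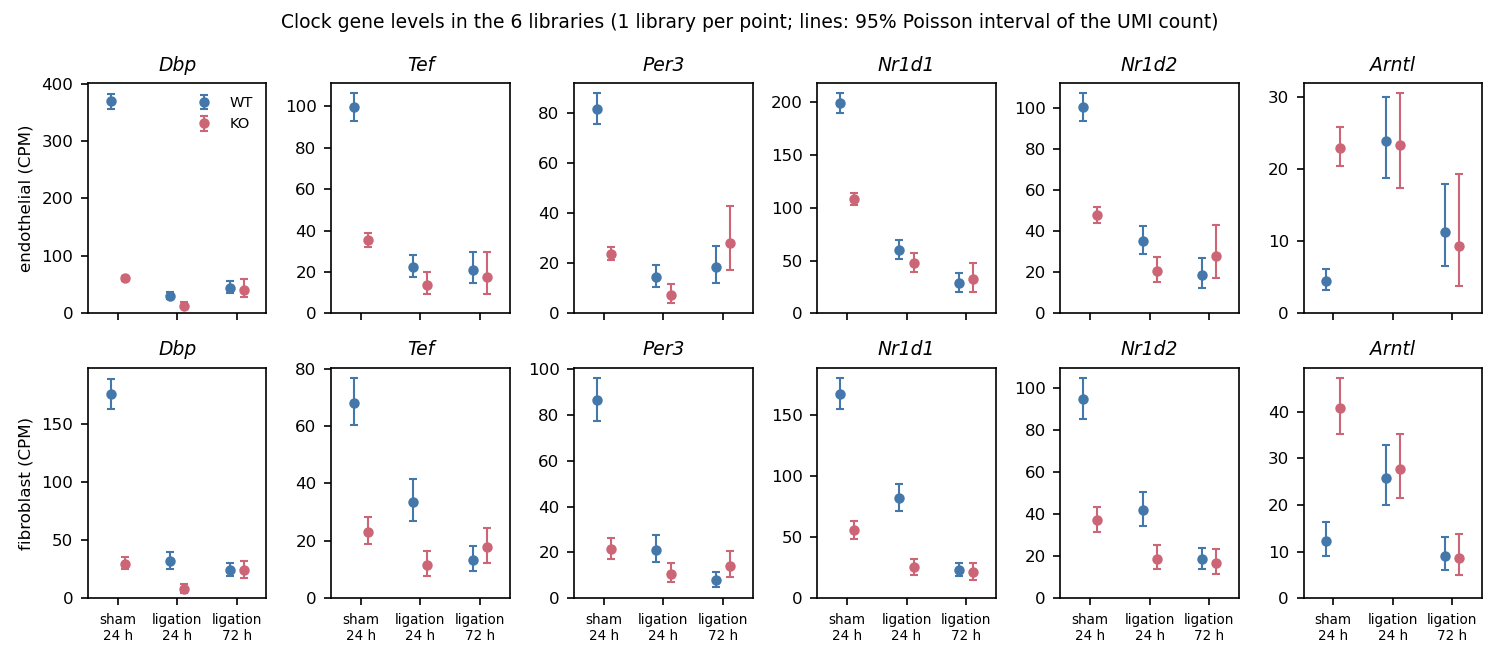
Level (y axis, CPM from 0) of 6 clock genes in endothelial cells (top row) and fibroblasts (bottom row) of the 6 libraries, WT in blue and KO in red, with 95% Poisson intervals. The WT sham point of Dbp is highest in both rows (369 and 176 CPM), and Arntl in endothelial cells is lowest there apart from overlap with the 72 h intervals (4.53 CPM).

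The heat shock list stood higher in the KO library in each of the 6 classes. These genes encode chaperones that refold damaged proteins, and they respond to heat, to stress and to tissue dissociation. The list had 14 genes, whose summed level in endothelial cells was 3778 CPM for WT and 6290 CPM for KO. In that class 13 of 14 were higher in KO, 7 of them past 1.5-fold, with a median log2 ratio of 0.69 (1.04% of all compared genes were past 1.5-fold higher). In monocytes and macrophages 7 of 13 compared genes were past 1.5-fold higher (median 0.65), in smooth muscle 5 of 10 (0.62) and in fibroblasts 4 of 14 (0.43). In cluster 6 the count was 3 of 8 (0.36) and in neutrophils 1 of 5 (0.42). The shares higher over all compared genes were 2.22%, 1.82%, 2.08%, 2.69% and 2.17% in these classes. The monocyte/macrophage count includes Hspb1 at 9.31 CPM in WT and 32.4 CPM in KO, 1.42% of its level in the highest class. Endothelial markers there summed to 85.2 and 270.5 CPM, and the part of endothelial transcripts was not tested. None was past 1.5-fold lower in any class.

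The heat shock genes past 1.5-fold included small heat shock, Hsp70 and co-chaperone genes. Endothelial Hspb1, a small heat shock protein, had 848 CPM in WT and 1637 CPM in KO, a log2 ratio of 0.95 (0.91 to 0.99). Dnaja1, a co-chaperone of Hsp70, had 361 and 705 CPM, a ratio of 0.96 (0.91 to 1.02). Hspa8, the constitutive Hsp70, had 733 and 1324 CPM, a ratio of 0.85. Hsph1 was low but differed more, with 8.60 and 29.1 CPM and a ratio of 1.76 (1.40 to 2.14). The inducible Hsp70 genes Hspa1a (97 and 302 UMIs) and Hspa1b (33 and 187) had ratios of 1.12 and 1.98. Their transcripts are near-identical, so the split between them is uncertain.

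The difference was present within single clusters too. Hspa8 had log2 ratios of 0.87 in capillary cluster 0, 0.92 in arterial cluster 13, 0.70 in fibroblast cluster 9 and 0.86 in monocyte/macrophage cluster 17. In neutrophil cluster 16 its ratio was 0.12 (-0.22 to 0.46). In monocytes and macrophages Hspa5, the chaperone of the endoplasmic reticulum, had 588 CPM in WT and 1026 CPM in KO, a ratio of 0.80. Smooth muscle Hspa1a had 49 and 157 UMIs, a ratio of 1.37, and Hspb1 1042 and 2278 CPM, a ratio of 1.13.

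Rbm3 and Cirbp, RNA-binding proteins induced by mild cold, were chosen after their values were seen and stood lower in KO. The log2 ratio of Rbm3 was -0.50 in endothelial cells, -0.39 in fibroblasts, -0.55 in smooth muscle and -0.74 in neutrophils (466 and 204 UMIs). That of Cirbp was -0.54 in endothelial cells and -0.63 in monocytes and macrophages. Of the immediate early list, 0 of 14 compared genes were past 1.5-fold in endothelial cells (2.74% over all compared genes), with a median of -0.04. In monocytes and macrophages 0 of 18 were (2.79% over all compared genes), with a median of -0.13. The part of tissue handling in the heat shock difference was not tested, since each genotype was a single preparation. At 24 h after ligation the heat shock medians were -0.12 in endothelial cells, 0.14 in fibroblasts and -0.36 in monocytes and macrophages.

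Few genes other than chaperones differed alike across cell types. Of 3133 genes compared in at least 4 of the 6 classes (cluster 6 included), 16 (0.511%) were past 1.5-fold higher in at least 4, and 0 were lower in at least 4. Dnaja1, Hspa8 and Hspb1 are among the 16, Hspb1 only with its low monocyte/macrophage level counted. Dync1i2, an intermediate chain of the motor dynein, was past 1.5-fold higher in 6 of 6. It had 187 CPM in WT and 360 CPM in KO endothelial cells (log2 ratio 0.95), and 166 and 332 CPM in fibroblasts (interval of the ratio 0.87 to 1.14). Smooth muscle cells had 156 and 312 CPM (interval 0.75 to 1.27). In monocytes and macrophages, neutrophils and cluster 6 its ratios were 0.78, 0.89 and 0.86. Nmt1, which attaches myristate to proteins, had ratios of 0.97 in endothelial cells, 0.99 in fibroblasts, 0.87 in monocytes and macrophages and 1.45 in smooth muscle (67.0 and 183 CPM).

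The gene mt-Atp8, for a subunit of ATP synthase, differed from the other mitochondrially encoded genes in these values. It had 1763 CPM in WT and 3023 CPM in KO endothelial cells, a log2 ratio of 0.78, and ratios of 0.57, 0.69, 0.93 and 0.77 in fibroblasts, monocytes and macrophages, neutrophils and cluster 6. The other 12 of 13 in endothelial cells were short of 1.5-fold, and the list's median was 0.01. The other genes of the 16 included Pabpc1, which binds poly(A) tails, the RNA helicase Ddx21, Fxr1, Hnrnpm, Cnot3 and Btg1. The amino acid transporter Slc38a2 was also among them, with 283 CPM in WT and 675 CPM in KO neutrophils (log2 ratio 1.26).

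The remaining 3 of the 16, Fabp4, Cd36 and Ly6c1, are abundant in endothelial cells. Fabp4, a fatty acid carrier, had 27349 CPM in WT and 29818 CPM in KO endothelial cells, a log2 ratio of 0.12. In other classes it was far lower, with 290 and 574 CPM in fibroblasts (0.98) and 164 and 506 CPM in monocytes and macrophages (1.63, and 0.74 with clusters weighted alike). All 13 endothelial markers were detected over the 2 libraries in those classes. Their summed level was 457 CPM in WT and 655 CPM in KO fibroblasts, 85.2 and 270.5 CPM in monocytes and macrophages, 142 and 391 CPM in neutrophils, 373 and 536 CPM in smooth muscle and 108 and 444 CPM in cluster 6. Their own-class level was 12521 and 13668 CPM. Fabp4 outside endothelial cells thus moved with endothelial transcripts, whose part in the result was not tested. Cd36 did not follow in monocytes and macrophages, with 197 CPM in WT, 216 CPM in KO and a log2 ratio of 0.13, which turned to -0.22 with means over cells. In neutrophils 24.4% of KO Fabp4 UMIs lay in a single barcode, and 30.7% of Cd36 UMIs. Sparc (132 and 445 UMIs) and Col4a1 (59 and 251) followed in monocytes and macrophages, as did Cdh5 (59 and 183), itself among the 13 markers summed.

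**Figure D4:**
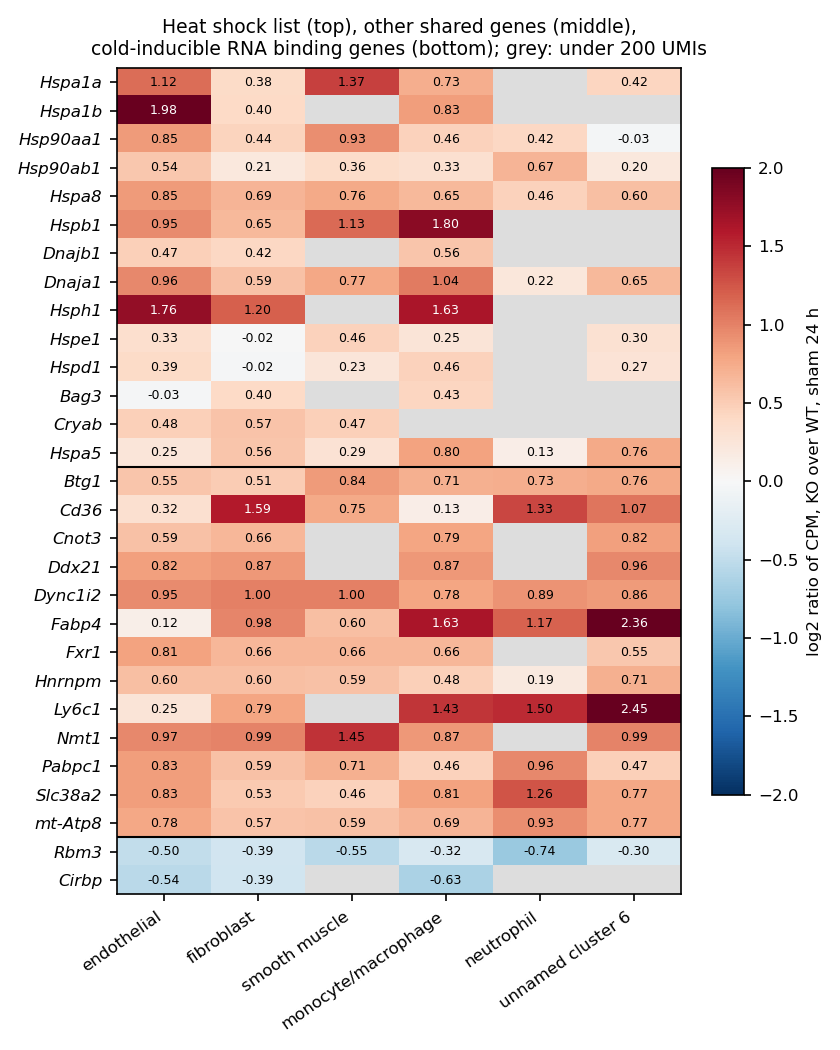
Log2 ratio of KO to WT at sham (colour and printed value) for the heat shock list, the other shared genes and Rbm3 and Cirbp (rows) in 6 cell classes (columns). Grey cells had under 200 UMIs. Red marks higher in KO, as for Dync1i2 (at least 0.78 in all 6 classes), and Rbm3 is blue in all 6.

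In endothelial cells the genes with the highest ratios at 100 CPM or more were Edn1 and Cdkn1a. Edn1, the precursor of the vasoconstrictor endothelin-1, had 308 UMIs in WT (35.8 CPM) and 1242 in KO (101 CPM), a log2 ratio of 1.49 (1.31 to 1.67). Cdkn1a, the cell cycle inhibitor p21, had 100 CPM and 274 CPM, a ratio of 1.45 (1.34 to 1.56). Sgk1, a kinase induced by glucocorticoids, had 442 and 706 CPM, a ratio of 0.68. The glucocorticoid list as a whole had a median of 0.02 over 12 compared genes, with Sgk1 and Cdkn1a past 1.5-fold higher and Per1 lower. After ligation the log2 ratios of Edn1 and Cdkn1a were 0.06 and -0.14 at 24 h, and -0.39 and -0.36 at 72 h.

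Endothelial genes lower in KO, besides the clock, included enzymes of detoxification. Gstt2, a glutathione transferase, had 153 CPM in WT and 73.1 CPM in KO, a log2 ratio of -1.07 (-1.19 to -0.94). Its ratio was -0.84 at 24 h after ligation and 0.83 at 72 h. Ephx1, an epoxide hydrolase, had 200 and 120 CPM, a ratio of -0.74. AY036118 had 5203 and 2952 CPM, a ratio of -0.82, and was lower in monocytes and macrophages too (-0.53). Of 14 compared adhesion and activation genes, 3 were past 1.5-fold lower, against 1.7% of all compared genes. Edn1 of the same list was past it in the other direction (1.49). Among the 3 lower were the leukocyte adhesion molecule Vcam1 at 121 and 74.5 CPM (-0.70) and P-selectin, Selp (-0.78). A single WT barcode held 11.0% of Vcam1 and 20.3% of Selp UMIs. The third, Cd74, is a marker of antigen-presenting cells, and neutrophil markers in endothelial cells had a summed level of 210 CPM for WT and 106 CPM for KO, fibroblast markers one of 415 and 300 CPM. S100a9 (76.7 and 35.2 CPM there) and Dcn (216 and 135 CPM) are members of these marker lists and enter the sums. The part of such transcripts in the endothelial differences was not tested.

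Fibroblasts differed in further genes besides the clock. Higher in KO were Spon2, a secreted matrix protein, at 52.0 CPM in WT and 137 CPM in KO (log2 ratio 1.39), Cdkn1a at 66.1 and 162 CPM (1.29) and the homeobox gene Meox1 at 86.8 and 192 CPM (1.15). Wif1, an inhibitor of Wnt ligands, had 73.0 and 138 CPM (0.92). Its ratio was 0.17 with clusters weighted alike, and the Wif1-expressing cluster 15 was the larger one in KO. Lower in KO were Inmt, a methyltransferase, at 133 and 57.6 CPM (-1.21), and Glul, glutamine synthetase, at 258 and 153 CPM (-0.76). Inmt stayed lower after ligation, with ratios of -1.84 at 24 h and -2.89 at 72 h (46 and 4 UMIs). Meox1 was higher at 24 h after ligation as well (0.76).

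Matrix genes in fibroblasts were short of 1.5-fold, in mixed directions. All 25 genes of the extracellular matrix list were compared, 0 were past 1.5-fold (3.56% over all compared genes), and the median was -0.03. A count of 0 in a list this short says little. Within that fold Mgp was higher at 5260 CPM in WT and 7692 CPM in KO (0.55, 0.52 to 0.57), as was Postn (0.55). Tnc (-0.55) and Col3a1 (-0.38) were lower. The chemokine Ccl2 had 685 and 1518 UMIs in fibroblasts, a log2 ratio of 0.99, and Cxcl1 had 523 and 327, a ratio of -0.84. A single KO barcode held 14.2% of the Ccl2 UMIs and a single WT barcode 39.6% of the Cxcl1 UMIs. The chemokine genes thus pointed in opposite directions.

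Smooth muscle cells had few compared genes at high level. Besides Nmt1, Hspa1a and Hspb1, the splicing factor Srsf5 stood out at 240 CPM in WT and 121 CPM in KO (log2 ratio -0.98, -1.27 to -0.70). Klf9, a transcription factor induced by glucocorticoids, had 520 and 304 CPM, a ratio of -0.77.

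Monocytes and macrophages differed mainly upwards: besides the heat shock genes, some chemokine genes and Il6 were higher in KO. Of 18 compared inflammatory genes 5 were past 1.5-fold higher and 0 lower, with a median of 0.18, against 2.22% higher over all compared genes. The rest were short of 1.5-fold in either direction, among them Il1b at 449 CPM in WT and 368 CPM in KO (-0.29, -0.36 to -0.21), Ptgs2 (-0.11) and Cxcl2 (0.11). Ccl2, which recruits monocytes, had 1127 CPM in WT and 1983 CPM in KO, a log2 ratio of 0.82 (0.78 to 0.85). Ccl7, a related monocyte chemokine, had 4154 and 5164 UMIs (0.64), Ccl3 58.4 and 106 CPM (0.85), Cxcl3 a ratio of 0.76 and Il6 91 and 114 UMIs (0.65). A single KO barcode held 10.6% of the Cxcl3 and 16.7% of the Il6 UMIs. The Ccl2 ratio depended on the clustering: 0.07 at a coarser resolution and 0.51 at a finer one. At 24 h after ligation it was -0.39. Ddx21 had 117 and 213 CPM (0.87).

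Genes lower in KO monocytes and macrophages included several of patrolling monocytes. Gngt2, a G protein subunit, had 351 CPM in WT and 208 CPM in KO, a log2 ratio of -0.76 (-0.85 to -0.66). Ear2 had 395 and 138 UMIs (-1.19), Spn, the sialoglycoprotein CD43, 246 and 96 (-1.03), and Ace, angiotensin-converting enzyme, 229 and 100 (-0.87). These 3 were the monocyte-list members past 1.5-fold lower, of 14 compared, against 0.571% of all compared genes. Cluster 20, the Ear2 cluster, was the smaller one in KO. Resident macrophage genes had 0 of 12 past 1.5-fold, against 2.79% of all compared genes either way, and a median of 0.17. Of the cell cycle list 4 of 10 compared genes were past 1.5-fold higher (2.22% over all genes), and a single KO barcode held between 16.8% and 29.7% of the UMIs of Mki67, Top2a, Ube2c and Cenpf.

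Neutrophils had the fewest UMIs per cell, and the rule named 6 genes higher and 6 lower in KO. Mmp8, a collagenase stored in granules, had 79.6 CPM in WT and 211 CPM in KO, a log2 ratio of 1.41 (1.13 to 1.68). Chil3, a chitinase-like secreted protein, had 383 and 845 CPM, a ratio of 1.14 (1.01 to 1.27). Both were also higher in KO at 24 h after ligation (1.39 and 1.10) and at 72 h (0.41 and 0.46). Gm46224 had 22.9 and 102 CPM (2.15), and Lmo4, a transcriptional adaptor, 50.1 and 107 CPM (1.10).

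Lower in KO neutrophils were Siglecf, a sialic acid receptor, at 120 and 69.6 CPM (log2 ratio -0.78), the receptor Gpr35 at 133 and 79.2 CPM (-0.75), and Ifi27l2a, an interferon-induced gene, at 725 and 433 CPM (-0.74). The cytokine Il1a had 103 and 62.6 CPM (-0.72) and the phosphatase Dusp2 160 and 97.7 CPM (-0.71). With clusters weighted alike these last 2 had ratios of -0.54 and -0.52, short of 1.5-fold. Cluster 5, with Siglecf among its leading genes, held a smaller share of neutrophils in KO, as given above. Siglecf also lies within 5 Mb of Trpm4, as given below. Of 17 compared genes of the maturation and migration list, 1 was past 1.5-fold higher (Mmp8) and 1 lower (Siglecf), with a median of 0.04. Over all compared genes the shares were 2.17% higher and 1.5% lower.

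Cluster 6 had Pdpn, podoplanin, at 83.5 CPM in WT and 222 CPM in KO (log2 ratio 1.41), Pdia4, a protein disulfide isomerase, at 124 and 261 CPM (1.08), and Ap2a2, an endocytic adaptor subunit, at 77.8 and 161 CPM (1.05). Lower were Rgs1, a regulator of G protein signalling, at 293 and 153 CPM (-0.94), and the complement gene C1qb at 1287 and 772 CPM (-0.74). Pf4, a platelet and macrophage chemokine, had 1352 CPM in WT and 3653 CPM in KO (1.43). The platelet markers there, Pf4 among them, had a summed level of 1422 CPM for WT and 3800 CPM for KO. Most of that sum was Pf4 itself, so it is no separate sign of platelet transcripts. Of the resident macrophage list, which also holds Pf4, Mrc1 (0.63) and Ccl24 (1.12) were past 1.5-fold higher and F13a1 (0.26) was not. A single KO barcode held 12.9% of the Ccl24 UMIs. The part of platelet transcripts in the other differences of this cluster was not tested.

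Calcium entry genes related to Trpm4 were mostly short of 1.5-fold, as were genes at large. Of the list of TRP channels and store-operated calcium entry genes, 0 of 16 compared were past 1.5-fold in endothelial cells. The counts were 0 of 11 in fibroblasts and 0 of 13 in monocytes and macrophages. Over all compared genes the shares were 2.74%, 3.56% and 2.79%, so a count of 0 in lists this short says little about calcium genes. Trpm7, a channel fused to a kinase, had 62.1 CPM in WT and 58.9 CPM in KO endothelial cells (log2 ratio -0.08, -0.24 to 0.09). In neutrophils Orai1, the pore of store-operated entry, had 163 and 284 CPM, a ratio of 0.80 (0.60 to 1.01). It was the only 1 of 6 past 1.5-fold, against 3.67% of all compared genes. In smooth muscle Stim1, the calcium sensor that opens Orai channels, had 101 and 66.6 CPM, a ratio of -0.59 (-1.01 to -0.18). It was the only 1 of 6 there, against 3.58%.

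Dbp lies near Trpm4 on the same chromosome. In GENCODE M21 on GRCm38, Trpm4 spans chr7:45302632-45333780 on the minus strand and Dbp chr7:45705088-45710203 on the plus strand, 371.3 kb from the start of Trpm4. The genes within 5 Mb of Trpm4 were therefore described as a set, and 274 of them were in the files. In endothelial cells 1 of 57 compared genes was past 1.5-fold higher and 2 lower, where 2.74% of all compared genes were past it. In fibroblasts 1 of 40 was higher and 2 lower, against 3.56% over all genes, and in monocytes and macrophages 0 of 51 either way, against 2.79%. With so few genes, these shares rest on 1 to 3 genes each. The median log2 ratios were -0.03, -0.05 and 0.03.

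Other neighbours past 1.5-fold are given here by name. Rcn3, an endoplasmic reticulum calcium-binding protein (chr7:45082913-45092221), had 134 and 109 UMIs in endothelial cells (log2 ratio -0.82) and 398 and 263 CPM in fibroblasts (-0.60). Sphk2, a sphingosine kinase (chr7:45709467-45718002, minus), had 70 and 170 UMIs in endothelial cells (0.76). Its annotation overlaps the end of Dbp on the other strand, and the sources used here do not say whether counting used strand, so reads of the overlap cannot be told apart. Saa3, an acute-phase protein 1381.9 kb away, had 455 and 1330 UMIs in fibroblasts (1.39), with 35.8% of the KO UMIs in a single barcode. In neutrophils Siglecf, Bax (249 and 119 UMIs, -0.62) and Mrgpra2b (183 and 42, -1.68) were lower, 3 of 18 compared, against 1.5% of all compared neutrophil genes. Clock genes on other chromosomes went both ways in endothelial cells and fibroblasts. Per3 on chromosome 4 and Nr1d1 on chromosome 11 were lower in KO, and Clock on chromosome 5 was higher (0.33 and 0.63). The part of sequence near Trpm4 in the Dbp difference was not tested.

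**Figure D5:**
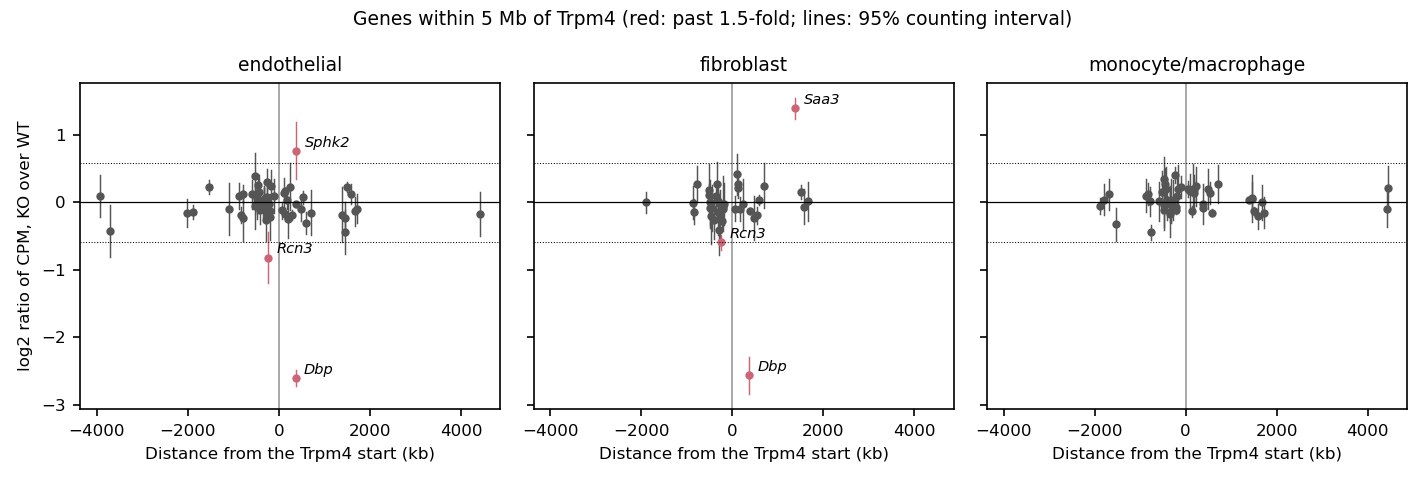
Log2 ratio of KO to WT (y axis) against distance from the Trpm4 start (x axis, kb) for the compared genes within 5 Mb, in 3 classes at sham, with 95% counting intervals as lines. Genes past 1.5-fold are red. Dbp stands alone below -2 in endothelial cells and fibroblasts, and most of the other genes lie within the dotted 1.5-fold lines.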

How the data were processed

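The deposited files hold whole-number UMI counts per gene and cell for 6 libraries of 4 pooled mice. Per the submitters' processing notes, the authors made them with Cell Ranger 6.0.0 against mm10. Strand use in counting is not given in the sources used here. Cells with at least 200 genes and at most 20% mitochondrial UMIs were kept, and doublets were removed at 0.8% per 1000 deposited cells by Scrublet score, since its automatic threshold marked 50 WT and 9 KO sham cells. All 6 libraries were clustered together (scanpy 1.11.5, 2000 variable genes without clock, heat shock, immediate early, mitochondrial and ribosomal genes and Trpm4, 30 principal components, 20 neighbours, Leiden resolution 1). Clusters were named from marker lists.

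UMIs were summed per class with at least 100 cells in both sham libraries and divided by the class total (CPM). Log2 ratios carry exact conditional 95% Poisson intervals, and share differences 95% binomial intervals, for counting error only. A gene at 0 was given the floor of 3 counts. No p-value was computed, because each group is 1 library. The ratio and interval code was tested on simulated data.

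Named genes were, per class, the 6 highest and 6 lowest ratios (3 in smooth muscle and cluster 6) with at least 200 UMIs over the pair, 100 CPM in the higher library, 25% of the level of the highest class and no barcode over 10% of UMIs. Genes past 1.5-fold in at least 4 classes, list members and genes within 5 Mb of Trpm4 were added. Of the genes this rule names, 1 is not reported here. The members and lists were chosen with earlier results of these data known. Of 32285 genes, 32158 (99.6%) were matched to GENCODE M21.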

Additional observations from a re-analysis of the deposited data

Results flagged for a closer look

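Ddx21, Pabpc1, Slc38a2 and mt-Atp8 were higher in KO than WT at sham in every class given below and were lower in KO at 24 h after ligation in the same classes. The difference between the conditions was not tested, since each is 1 library per genotype. The log2 ratio of Ddx21 at 24 h after ligation was -0.93 in endothelial cells, -0.40 in fibroblasts and -0.90 in monocytes and macrophages, against 0.82, 0.87 and 0.87 at sham. That of Pabpc1 was -1.03, -0.54, -0.78 and -0.39 in endothelial cells, fibroblasts, monocytes and macrophages, and neutrophils, against 0.83, 0.59, 0.46 and 0.96 at sham. That of Slc38a2 was -0.36, -0.52, -0.62 and -0.12 in the same order, against 0.83, 0.53, 0.81 and 1.26. That of mt-Atp8 was -0.43, -0.68, -0.84 and -0.96, against 0.78, 0.57, 0.69 and 0.93.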

How the results depend on the processing

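Depth limits the comparison to genes with many UMIs: with a minimum of 50 UMIs the genes past 1.5-fold numbered 686 in endothelial cells, 814 in fibroblasts, 662 in monocytes and macrophages, 469 in neutrophils and 575 in smooth muscle, and with none 2711, 3140, 2953, 3180 and 3461. The endothelial clock median was -1.81 and -1.78 under these 2 settings. Past 2-fold the counts were 47, 42, 42, 16 and 7. Without doublet removal 108 smooth muscle genes were past 1.5-fold, and with means over cells 310 fibroblast genes. The monocyte/macrophage share difference was -2.28 and -6.99 points at Leiden resolutions 0.5 and 2, -6.33 with the sham libraries clustered alone, -2.97 with the excluded gene lists kept, -3.05 without doublet removal and -6.60 over cells with at least 1500 UMIs. With the sham libraries alone the endothelial share difference was 7.31 points and the endothelial heat shock median 0.57. At most 10% mitochondrial UMIs gave 8.48 points, 0.58, an endothelial Dbp ratio of -2.45 and a fibroblast share difference of 2.26 points. Direction turned for Cd36 in monocytes and macrophages (-0.22 with means over cells, -0.10 with clusters weighted alike) and for the neutrophil median of mitochondrially encoded genes (-0.079 without doublet removal). The cause was not tested. The Dbp ratio spanned -2.70 to -2.45 in the endothelial class, -2.72 to -2.41 in the fibroblast class and -2.34 to -2.20 in the smooth muscle class. Of 374 clock gene values under an alternative 369 stayed within their counting interval, as did 1075 of 1232 values of named genes. The named genes count Dbp, Nr1d1 and Nr1d2 again. No paired analysis was possible because each group is 1 library and no test was run.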

Other observations

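Several gene groups had medians near 0 between the sham libraries, though single members differed. In endothelial cells 28 interferon-induced genes had a median log2 ratio of KO to WT of -0.05 with 0 past 1.5-fold higher and 1 lower, and 13 MHC class I genes had a median of -0.04 with 0 either way. The endothelial fatty acid uptake list had 0 of 14 past 1.5-fold and a median of 0.13. Its log2 ratios ran from -0.31 (Meox2) to 0.47 (Angptl4 and Gpihbp1). Over all compared endothelial genes 2.74% were past 1.5-fold, so a count of 0 in lists this short says little. MHC class II genes in monocytes and macrophages had 0 of 7 past 1.5-fold (2.79% over all compared genes) and a median of -0.04. Hypoxia and glycolysis genes in monocytes and macrophages had a median of -0.10 over 16. Past 1.5-fold were hexokinase Hk2, higher at 95.4 CPM in WT and 152 CPM in KO (log2 ratio 0.67), and the growth factor Vegfa, lower at 19.3 and 12.4 CPM (-0.64). Over all compared genes of this class the share past it was 2.79%.

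Hemoglobin transcripts in neutrophils summed to 41.2 CPM in the WT library and to 3058 CPM in the KO library. For Hbb-bs 98.4% of the 2901 KO UMIs lay in 1 barcode, against 68 UMIs in WT.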
